A study of Mus musculus with 16 samples.

Results

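Core target genes of the transcription factor NRF2 were followed in the lungs of newborn mice that had breathed ozone. The set held 10 genes: the gene of the factor itself, Nfe2l2, and its classical targets Nqo1, Cbr3, Hmox1, Gclc, Gclm, Slc7a11, Txnrd1, Srxn1 and Osgin1. Their probes were found by gene symbol or older synonym among the 41174 probes of the array that are not controls, which gave 18 probes. Of these, 14 probes of 9 genes were among the 32343 probes and 21631 genes that could be tested. The 4 probes of Slc7a11 were too dim to test. Among the genes tested, Osgin1 was the single member called higher after ozone, 1.68-fold at 6 h, when 1.36% of all genes were called higher.

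The study used inbred BALB/c mice aged 3 days, with no engineered allele in any group. Pups breathed 1000 ppb ozone, or filtered normal air, for 3 h, and whole lungs were collected 6 h or 24 h after the exposure ended. This gave 4 groups of 4 lungs, 1 mouse and 1 array each, drawn at random from larger groups of pups: air 6 h, ozone 6 h, air 24 h and ozone 24 h. The air mice were littermates of matching age, the time points were performed separately with air controls of their own, and all pups stayed with a foster dam during the exposure. The labels give no sex for the pups. Values come from the whole organ, so fewer cells of a type and less RNA per cell cannot be told apart.

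NRF2 is held in the cytoplasm by KEAP1, which presents it to a CUL3 ubiquitin ligase for degradation. Oxidants and electrophiles modify cysteines of KEAP1, NRF2 then escapes degradation and, paired with a small MAF protein, binds antioxidant response elements near its target genes. The targets make and recycle glutathione and thioredoxin, reduce quinones and carbonyls, break down haem and supply NADPH. Because NRF2 is regulated largely through its stability, the level of Nfe2l2 mRNA and the activity of the protein are separate quantities, and the arrays measured the mRNA alone. In the lung the pathway is best known for its part in the defence of airway and alveolar epithelium against inhaled oxidants.

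Every value below is log2 of the processed probe signal minus the 75th percentile of its array, so 0 is the 75th percentile and 1 unit is a doubling. Signals of different probes cannot be ranked against each other on this scale. A change is ozone minus air with its standard error (SE), 4 arrays per group, and a gene was called changed where its two-sided limma p, adjusted by Benjamini-Hochberg over all 21631 genes, was under 0.05. The 75th percentile signal lay between 574 and 946 per array, no spot was saturated, and the share of probes well above background ran from 65.0% to 83.9%. Ozone 6 h replicate 3 had that highest share, and the other 6 h arrays reached 72.5% at most. Correlations between arrays of a group, taken across genes, ranged from 0.969 to 0.995. All 6 markers of alveolar type II cells (Sftpc, Sftpb, Sftpa1, Abca3, Lamp3 and Slc34a2) passed the background filter, and they are defining markers of the labelled tissue. Each time point was run on 2 slides of its own, replicates 1 and 2 on the first and replicates 3 and 4 on the other.

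Promoter sequences are shown because the members that carry NRF2 and AP-1 type motifs near their start sites can then be set beside the change each one made. RefSeq windows of 250 bases before to 50 after a start site (build GRCm38.p6) were found for 8 of the 10 members, in 10 windows, with 3 of them for Txnrd1. Hmox1 and Gclc had no window and were not searched. The motifs were searched on both strands as TGACNNNGC (core of the antioxidant response element), TGANTCA (AP-1) and TGANTCAGC (the NRF2 and small MAF form, which holds the AP-1 letters within it). The 250 upstream bases of Osgin1, Srxn1 and Gclm follow, 5′ to 3′ on the gene's strand, with every match of these motifs in capitals. Positions count from the start site to the first base of a match on the gene's strand.
Osgin1, chr8:119436897-119437146, plus strand: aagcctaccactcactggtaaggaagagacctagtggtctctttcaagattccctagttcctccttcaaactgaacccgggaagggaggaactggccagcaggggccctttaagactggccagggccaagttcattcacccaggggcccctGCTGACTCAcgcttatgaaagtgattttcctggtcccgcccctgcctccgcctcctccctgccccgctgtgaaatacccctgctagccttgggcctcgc
Srxn1, chr2:152105274-152105523, plus strand: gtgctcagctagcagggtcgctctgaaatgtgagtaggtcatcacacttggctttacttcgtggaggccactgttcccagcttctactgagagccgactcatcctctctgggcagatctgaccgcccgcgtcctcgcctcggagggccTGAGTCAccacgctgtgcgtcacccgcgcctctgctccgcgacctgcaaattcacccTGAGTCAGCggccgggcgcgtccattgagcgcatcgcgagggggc
Gclm, chr3:122245307-122245556, plus strand: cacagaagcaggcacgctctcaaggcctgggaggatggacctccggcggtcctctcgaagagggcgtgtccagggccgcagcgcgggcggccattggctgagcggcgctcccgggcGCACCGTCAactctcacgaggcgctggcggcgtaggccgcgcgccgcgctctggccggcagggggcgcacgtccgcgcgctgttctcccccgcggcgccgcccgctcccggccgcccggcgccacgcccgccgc
Among the 8 members searched, Osgin1 and Srxn1 were those with TGANTCAGC, which 1.19% of all 32851 promoter windows hold. In Osgin1 it starts at position -99 on the opposite strand as TGAGTCAGC, and in Srxn1 at position -45 on the gene's strand, also as TGAGTCAGC. Both genes therefore have the AP-1 letters too, which 7.81% of windows hold, and Srxn1 has a second AP-1 match at position -102. The core TGACNNNGC is in 12.4% of windows and in 4 of the 10 member windows, those of Gclm at position -134, of Txnrd1 (1 of its windows) at -92, of Nfe2l2 at -240 and of Srxn1 past the start site at 28. A match describes the letters in the window and is no measurement of binding. Sequence outside the windows was not searched, so a window without a match does not mean a gene without such an element. Osgin1 and Srxn1 share the longer motif, and of the pair Osgin1 was called changed after ozone while Srxn1 was not.

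Osgin1 encodes an oxidative stress induced growth inhibitor. At 6 h its values in air were -0.83, -0.88, -1.19 and -1.06, and in ozone they were -0.22, -0.42, -0.20 and -0.11. Every ozone lung lay above every air lung. The change was 0.75 ± 0.096 (SE, 4 arrays per group), a 1.68-fold rise with a 95% interval from 1.46 to 1.94, and its limma adjusted p was 0.000801. Of all genes tested at 6 h, 1.36% were called higher and 4.48% were called in either direction, and Osgin1 ranked 11 by p. For 4.61% of genes the 4 ozone values were all above the 4 air values at 6 h.

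At 24 h the values of Osgin1 were -0.94, -0.93, -0.76 and -0.75 in air and -0.42, -0.61, -0.38 and -0.52 in ozone. The groups were again apart, with all ozone lungs above all air lungs, a pattern found in 6.80% of genes at that time. The change was 0.36 ± 0.096 (SE, 4 arrays per group), or 1.29-fold with an interval from 1.12 to 1.48. It was not called over all genes (limma adjusted p = 0.0635, unadjusted p = 0.00149). The 24 h change was called under 3 of 14 alternative settings and in 1 of 16 fits with 1 array left out. The limma adjusted p was 0.0394 without air 6 h replicate 3, which is outside this comparison but shares its estimate of spread. It was 0.00445 with array weights, 0.0438 on the 24 h arrays alone and 0.0495 among genes well above background on all 16 arrays. Settings without a call gave 0.183 with normexp background correction, 0.243 with Xist as a covariate and 0.267 on the mean of both probes. The effect at 24 h was lower than that at 6 h by 0.39 ± 0.136 (SE), and this difference did not pass the test (limma adjusted p = 0.238). By mean level the groups stood in the order air 6 h (-0.99 ± 0.17 SD, n = 4), air 24 h (-0.85 ± 0.10), ozone 24 h (-0.48 ± 0.10) and ozone 6 h (-0.24 ± 0.13). The 2 air groups did not differ by the test (0.14 higher at 24 h, limma adjusted p = 0.226), and the values of the 2 ozone groups overlapped.

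Within single slides the Osgin1 change at 6 h was 0.54 for replicates 1 and 2 (limma adjusted p = 0.0855, not called) and 0.97 for replicates 3 and 4 (adjusted p = 0.00267). At 24 h the corresponding changes were 0.42 and 0.30, neither of them called (adjusted p = 0.125 and 0.385). Without ozone 6 h replicate 3, the array with the high share of probes above background, the 6 h change was 0.74 (adjusted p = 0.00206).

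Osgin1 has 2 probes, 60 bases each, which lie close together on chromosome 8 in build mm9. Their first 30 bases are shown because each reads the gene separately.
Osgin1 brighter probe, chr8:121970077-121970136, plus strand: gccagctgagtgtccaacttggagggcccc
Osgin1 dimmer probe, chr8:121969872-121969931, plus strand: gtgagcccatctaaagatttcccatttggg
The dimmer probe gave -3.33, -3.05, -3.35 and -3.27 in air at 6 h and -2.81, -2.96, -2.36 and -2.46 in ozone, again with no overlap. Its change of 0.60 ± 0.152 (SE) was called when p-values were adjusted over all 32343 probes (limma adjusted p = 0.0369), as was that of the brighter probe (0.000891). Of all probes, 1.05% were called higher at 6 h. At 24 h the dimmer probe's values were -3.15, -3.03, -3.17 and -2.69 in air and -2.75, -2.82, -2.63 and -2.96 in ozone, which overlap, and its change was 0.22 ± 0.152 (SE, limma adjusted p = 0.664). At that time 0.439% of probes were called higher.

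**Figure D1:**
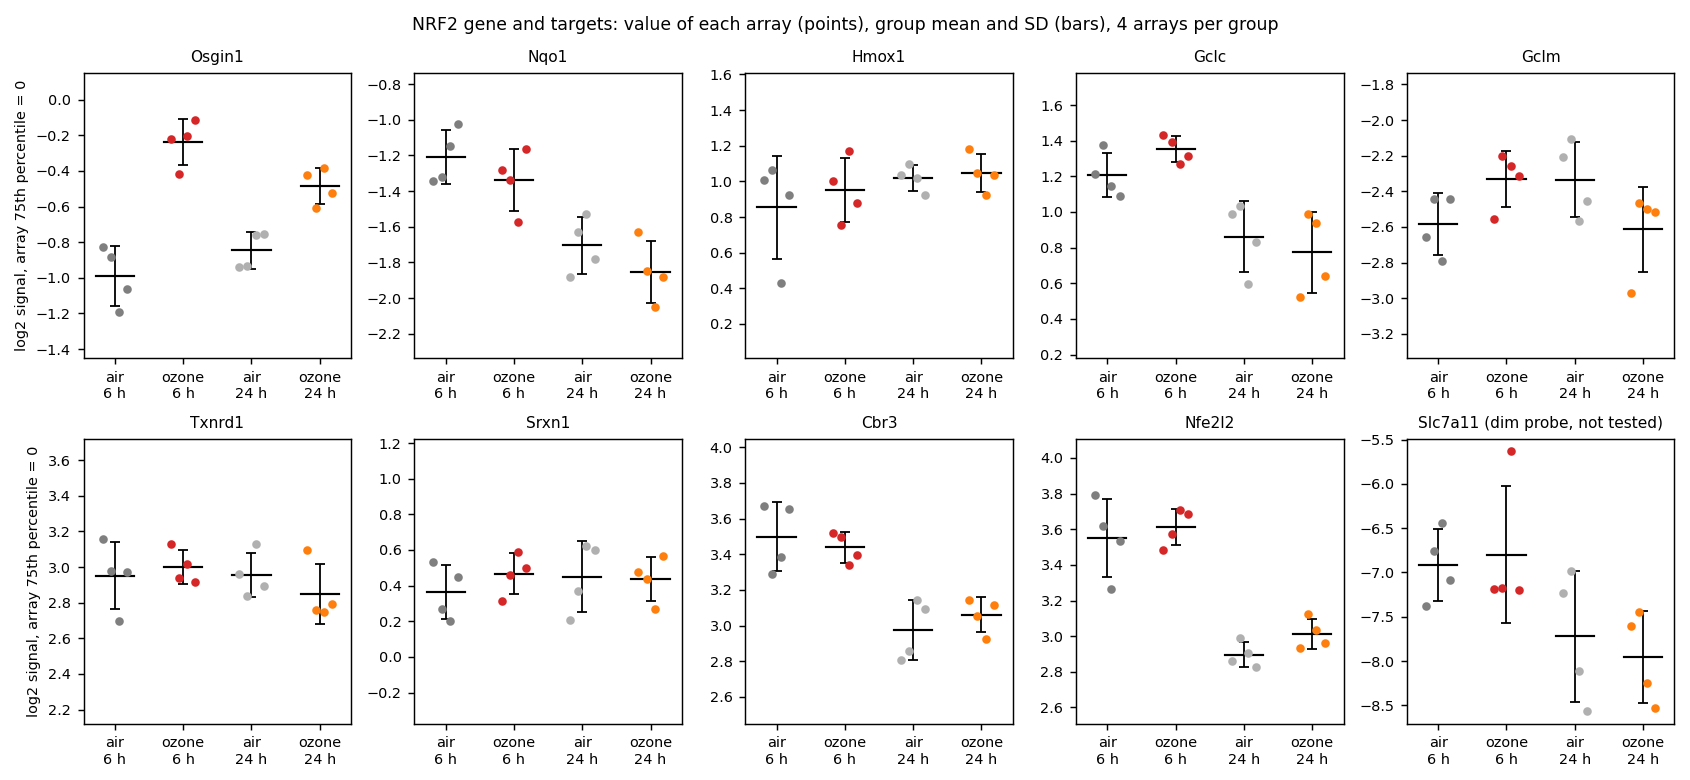
Log2 signal relative to the 75th percentile of the array (y axis) in the 4 groups (x axis), 1 panel per gene. The panels show the 9 members tested and, last, a dim probe of Slc7a11, which was not tested. Points are arrays, bars are the group mean and SD of 4 arrays. Osgin1 is the panel in which ozone and air points separate at both times, and the air points of Nfe2l2, Cbr3, Nqo1 and Gclc are lower at 24 h than at 6 h.

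Nfe2l2, the gene of NRF2 itself, did not pass the test after ozone at either time. Its main probe read 3.79, 3.62, 3.27 and 3.53 in air and 3.49, 3.58, 3.71 and 3.68 in ozone at 6 h. At 24 h it read 2.86, 2.99, 2.90 and 2.83 in air and 2.93, 3.12, 3.03 and 2.96 in ozone. The groups overlapped at both times. The change was 0.06 ± 0.092 (SE) at 6 h, with a 95% interval from -0.13 to 0.26 and a limma adjusted p of 0.727. At 24 h it was 0.12, with an interval from -0.08 to 0.31 and an adjusted p of 0.693. The intervals are narrow enough to leave out a rise of the size Osgin1 made at 6 h.

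The enzymes that reduce quinones and carbonyls did not pass the test either. NQO1 takes quinones to hydroquinones with NADH or NADPH, and CBR3 reduces carbonyls. Nqo1 read -1.35, -1.32, -1.15 and -1.03 in air and -1.28, -1.34, -1.58 and -1.16 in ozone at 6 h. It read -1.88, -1.63, -1.53 and -1.78 in air and -1.63, -1.85, -2.05 and -1.88 in ozone at 24 h. Both point estimates for Nqo1 were below 0, at -0.13 (interval -0.38 to 0.12, limma adjusted p = 0.546) and -0.15 (interval -0.40 to 0.10, adjusted p = 0.703), and the groups overlapped. Cbr3 lay between 3.29 and 3.67 in air and between 3.34 and 3.52 in ozone at 6 h. At 24 h it lay between 2.81 and 3.14 in air and between 2.92 and 3.14 in ozone. Its changes were -0.06 (interval -0.27 to 0.14, limma adjusted p = 0.738) and 0.08 (interval -0.12 to 0.29, adjusted p = 0.834).

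Hmox1 encodes haem oxygenase, which splits haem into biliverdin, iron and carbon monoxide. Its air values at 6 h were 1.01, 1.06, 0.43 and 0.92 and its ozone values 1.01, 0.75, 1.17 and 0.88. Replicate 3 was the lowest of the air lungs and the highest of the ozone lungs. At 24 h the values were 1.04, 1.10, 1.02 and 0.92 in air and 1.18, 1.05, 0.92 and 1.04 in ozone. The changes were 0.10 (interval -0.15 to 0.35, limma adjusted p = 0.661) and 0.03 (interval -0.22 to 0.28, adjusted p = 0.975), so neither time passed the test. A rise of Hmox1 above 0.35 on the log2 scale lies outside both intervals.

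Gclc and Gclm encode the catalytic and modifier subunits of glutamate-cysteine ligase, which makes the first committed step of glutathione synthesis. Gclc read 1.21, 1.38, 1.15 and 1.09 in air and 1.43, 1.40, 1.27 and 1.31 in ozone at 6 h, and at 24 h it lay between 0.59 and 1.04 in air and between 0.52 and 0.99 in ozone. Its changes were 0.15 (interval -0.09 to 0.38, limma adjusted p = 0.462) and -0.09 (interval -0.32 to 0.14, adjusted p = 0.850). At 6 h Gclm read -2.66, -2.44, -2.79 and -2.44 in air and -2.56, -2.20, -2.26 and -2.31 in ozone. The change of Gclm was 0.25 ± 0.144 (SE, limma adjusted p = 0.329). At 24 h it read -2.21, -2.11, -2.56 and -2.46 in air and -2.97, -2.47, -2.50 and -2.52 in ozone, a change of -0.28 ± 0.144 (SE, limma adjusted p = 0.432). Without ozone 24 h replicate 1, the lowest array, the 24 h change was -0.16 (adjusted p = 0.889), and within the slide of replicates 3 and 4 it was 0.0026. The groups overlapped at both times. The difference between these effects was -0.53 ± 0.203 (SE, interval -0.96 to -0.10) and was not called over all genes (limma adjusted p = 0.284), while with normexp background correction it was -0.83 (adjusted p = 0.0486), with an all-gene median of -0.21 under that setting.

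Slc7a11 encodes the light chain of the cystine and glutamate exchanger that feeds glutathione synthesis. Of its 4 probes, none was well above background on any air array or on any 24 h array. For 2 of the probes 1 ozone array of 6 h was well above background, and it was replicate 3, with values of -4.99 and -3.77 against -7.68 to -7.00 and -8.05 to -7.33 on the other 3 ozone arrays. That array is the one with the highest share of probes above background. The lowest signal that counted as well above background lay between -7.06 and -5.27 depending on the array, so no fold is given for Slc7a11.

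Txnrd1 encodes the cytosolic reductase that recharges thioredoxin with NADPH, and Srxn1 encodes the sulfiredoxin that rescues overoxidized peroxiredoxins. Txnrd1 read 3.16, 2.98, 2.70 and 2.97 in air and 3.13, 2.94, 3.02 and 2.91 in ozone at 6 h. At 24 h it read 2.96, 2.84, 3.13 and 2.89 in air and 3.10, 2.76, 2.75 and 2.79 in ozone. The groups overlapped, and the changes were 0.05 (interval -0.16 to 0.26, limma adjusted p = 0.807) and -0.11 (interval -0.32 to 0.11, adjusted p = 0.769). Srxn1 lay between 0.20 and 0.53 in air and between 0.31 and 0.59 in ozone at 6 h, and between 0.21 and 0.63 in air and 0.27 and 0.56 in ozone at 24 h. Its changes were 0.10 (interval -0.11 to 0.32, limma adjusted p = 0.585) and -0.01 (interval -0.23 to 0.20, adjusted p = 0.987). Its other 2 probes were dimmer and were not called either, with changes of 0.21 and -0.39 at 6 h and 0.25 and -0.04 at 24 h.

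**Figure D2:**
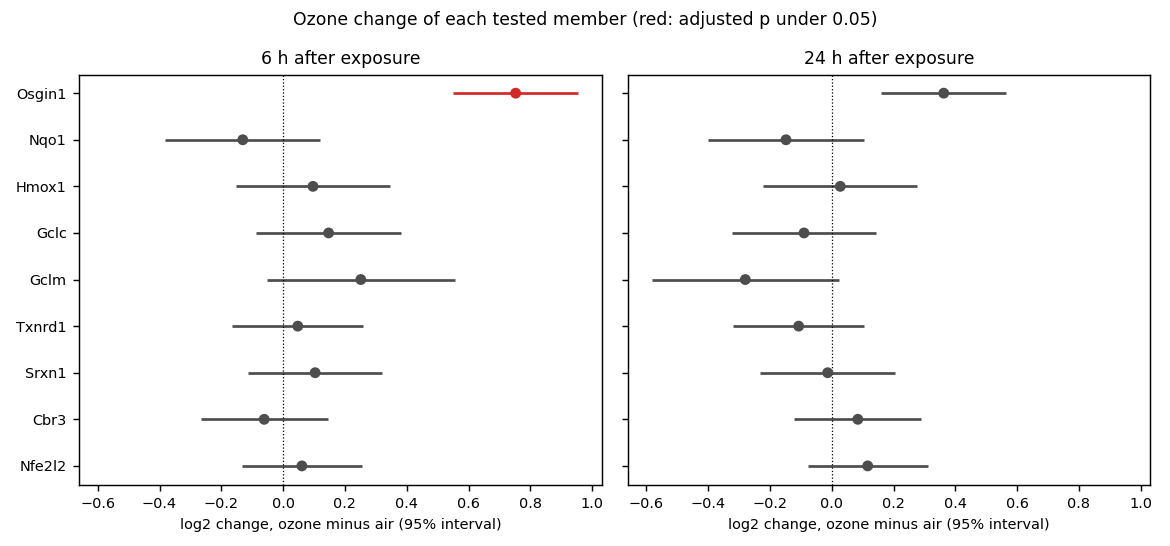
Log2 change, ozone minus air, with its 95% interval (x axis) for each of the 9 members tested (y axis) at 6 h and 24 h, with genes called changed in red. At 6 h the interval of Osgin1 runs from 0.55 to 0.95 and those of the other 8 members include 0, and at 24 h Osgin1 runs from 0.16 to 0.56 without being called.

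Over the set, 1 of the 9 members tested was called at 6 h and 0 were called at 24 h, against 4.48% and 2.01% of all genes. At each time 1 member, Osgin1, had an unadjusted limma p under 0.05. The difference between the ozone effects was called for 0 members, with 2 (Osgin1 and Gclm) at an unadjusted p under 0.05, and for 0.0647% of all genes. The median change of the members was 0.10 at 6 h and -0.01 at 24 h, beside 0.07 and 0.02 for all genes. The 6 h median of the members was -0.03 without air replicate 3 and 0.04 without ozone replicate 3. The 24 h median ran from -0.05 to 0.04 with 1 array left out, so neither median has a settled sign. The 2 ozone comparisons have separate controls. On simulated data with the spread of all 21631 genes, changes were put into genes drawn at random. The same fit found 54% of the 1.5-fold changes and 76% of the 2-fold changes at 6 h, and 45% and 77% at 24 h. These shares describe genes at large and were not worked out for the members. Fewer genes were changed in the simulation than were called on the real arrays.

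Separately from ozone, 4 members were lower in the air lungs of 24 h than in those of 6 h. Nfe2l2 fell by 0.66 (limma adjusted p = 1.24e-05), Cbr3 by 0.52 (0.000223), Nqo1 by 0.49 (0.0021) and Gclc by 0.34 (0.0152), and in each of them all 24 h air values lay below all 6 h air values. The other 5 did not pass the test, with Gclm at 0.25 (adjusted p = 0.163), Hmox1 at 0.16 (0.269), Osgin1 at 0.14, Srxn1 at 0.09 (0.508) and Txnrd1 at 0.00 (0.981). In this comparison 2 settings called 1 member higher at 24 h, namely Gclm with normexp background correction (0.46, adjusted p = 0.0221) and Txnrd1 with quantile normalization (0.20, adjusted p = 0.0495). With quantile normalization Nfe2l2 fell by 0.43 and Cbr3 fell by 0.31, both still called. Of all genes, 49.9% were called in this comparison, 28.5% lower and 21.4% higher, and 26.4% had all 24 h values below all 6 h values. The 4 of 9 members therefore stand beside 49.9% of all genes. Time after exposure, the separate run and the slide cannot be told apart here.

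The 3 probes of Nfe2l2 did not move together in that comparison. Their first 30 bases show which stretch each reads, on the minus strand of chromosome 2 in build mm9.
Nfe2l2 main probe, chr2:75513771-75513830: ctcaagttaatttcttaggcaccatttggg
Nfe2l2 neighbouring probe, chr2:75513917-75513976: gtactgctaaaacttcctactgtgatgtga
Nfe2l2 distant probe, chr2:75529947-75530006: tagtaatcctttttataggcccaaattgca
The main probe and its neighbour both fell, by 0.66 and 0.45 (limma adjusted p over all probes = 1.37e-05 and 0.000551). The distant probe read -3.25, -2.92, -2.48 and -2.56 in air at 6 h and -1.30, -1.06, -1.11 and -1.20 in air at 24 h. That is a rise of 1.64 ± 0.190 (SE), or 3.11-fold, with no overlap and a limma adjusted p of 1.92e-06. Among all probes 25.3% were called higher and 25.1% lower. The distant probe carries the gene's name in the array design, but under a different transcript record from that of the main probe and its neighbour. Which transcript the distant probe reads was not analysed here. Its ozone changes were 0.20 at 6 h and -0.25 at 24 h, not called, with ozone 24 h replicate 1 at -2.07 below the other ozone arrays, which lay between -1.27 and -1.09. Of the dimmer Srxn1 probes, 1 also rose in air, by 0.80 ± 0.293 (SE, limma adjusted p = 0.0301), where the main Srxn1 probe did not pass the test.

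**Figure D3:**
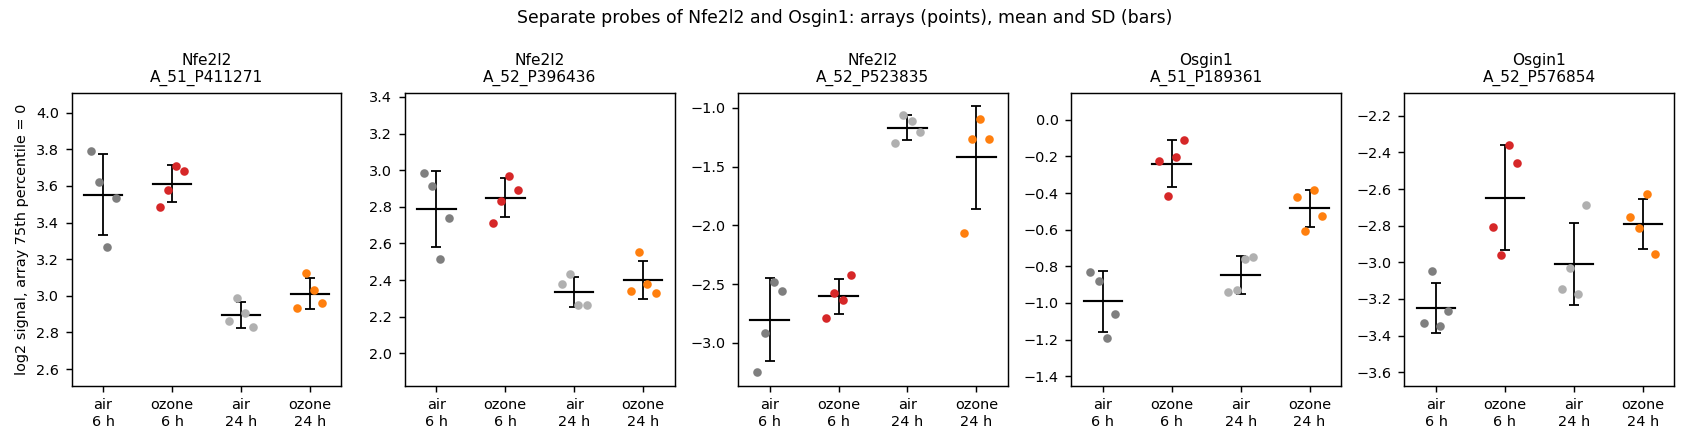
Log2 signal relative to the 75th percentile of the array (y axis) in the 4 groups (x axis), 1 panel for each of the 3 probes of Nfe2l2 and the 2 probes of Osgin1. Points are arrays, bars are mean and SD of 4 arrays. The distant Nfe2l2 probe is higher at 24 h while the other 2 are lower, and both Osgin1 probes are higher in ozone at 6 h.

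Other genes of the pathway were grouped by role. Among 19 measured regulators of NRF2, including Keap1, Cul3, Bach1 and the small MAF genes, none was called at 6 h or at 24 h. Their median change was 0.17 and -0.04. The regulators with the smallest p were Rbx1, a subunit of the CUL3 ligase, at -0.35 (limma adjusted p = 0.0513) at 6 h and Trim21 at 0.31 (adjusted p = 0.16) at 24 h. Of the 15 haem and iron genes tested none was called either, with medians of 0.05 and 0.04. Fth1 and Ftl1, the ferritin chains that are textbook NRF2 targets, stood at 0.23 (adjusted p = 0.252) and 0.36 (adjusted p = 0.31) at 24 h.

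Among 18 genes of glutathione and cystine handling, 1 fell at 6 h and none was called at 24 h, with medians of -0.07 and 0.05. The gene that fell was Cth, cystathionine gamma-lyase, which makes cysteine. It read -1.26, -1.62, -1.21 and -1.31 in air and -2.21, -1.92, -2.12 and -1.50 in ozone, a change of -0.59 ± 0.145 (SE, limma adjusted p = 0.0305). The call held in 10 of 16 fits with 1 array left out, being lost without any of ozone replicates 1, 2 and 3 or air replicates 1, 3 and 4 of 6 h, and with normexp background correction the change was -0.31 (adjusted p = 0.377). Gsr, glutathione reductase, stood at 0.68 ± 0.205 (SE, limma adjusted p = 0.0696) at 6 h, with overlapping groups.

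Of 14 thioredoxin and peroxiredoxin genes, 1 rose and 3 fell at 6 h, and none was called at 24 h, with medians of -0.09 and -0.04. Sesn2, a stress-induced sestrin, rose by 0.37 (limma adjusted p = 0.0382), from 1.37, 1.29, 1.22 and 1.14 in air to 1.64, 1.47, 1.85 and 1.55 in ozone. Prdx1 and Prdx4, peroxiredoxins of the cytosol and the endoplasmic reticulum, fell by 0.48 (adjusted p = 0.0212) and 0.45 (adjusted p = 0.0211). Prdx1 read 4.70, 4.48, 5.11 and 4.76 in air and 4.08, 4.38, 4.21 and 4.46 in ozone. Txn1, thioredoxin itself, fell by 0.32 (limma adjusted p = 0.0482). All ozone values lay on 1 side of the air values in these 4 genes. With 1 array left out, the calls of Prdx1, Prdx4, Sesn2 and Txn1 held in 13, 12, 12 and 4 of 16 fits (and in 9, 10, 8 and 3 of 14 alternative settings), and Prdx1 was lost when replicate 1 or 3 of the 6 h ozone lungs, or replicate 4 of the air lungs, was left out. Prdx4 and Sesn2 were lost for the same arrays and for air replicate 3, and Txn1 for 12 of the 16. For 4.87% of genes all ozone values lay below all air values at 6 h, and 3.12% were called lower. The calls of Prdx1 and Txn1 were lost with quantile normalization and with the authors' deposited values. That of Txn1 was also lost with normexp background correction. In the main fit Prdx1 and Txn1, which are NRF2 targets in many cell types, thus fell while Txnrd1 and Srxn1 of the same system were not called.

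Of 19 further quinone, carbonyl and xenobiotic enzymes, 1 rose and 1 fell at 6 h and 1 rose at 24 h, with medians of 0.14 and 0.16. Aox1, aldehyde oxidase, rose by 0.37 (limma adjusted p = 0.0178) at 6 h, from -0.22, -0.07, -0.33 and -0.30 in air to 0.24, 0.02, 0.19 and 0.10 in ozone. Nqo2, the relative of Nqo1 that does not use NADPH, fell by 0.38 (adjusted p = 0.0327), with groups that overlapped at 1.96 in air and 1.97 in ozone. The Aox1 call held in 14 of 16 fits with 1 array left out (lost without ozone replicate 1 or air replicate 4 of 6 h). That of Nqo2 held in 10, being lost without any of ozone replicates 1, 2 and 3 or air replicates 1, 3 and 4 of 6 h, and was not made on the mean of its probes. At 24 h Aldh1a1, an aldehyde dehydrogenase, rose by 0.52 (limma adjusted p = 0.00419; 0.684% of genes were called higher), from 4.19, 4.45, 4.36 and 4.62 in air to 4.80, 4.92, 5.13 and 4.86 in ozone, and the call held in all 16 of those fits. Aldh1a1 is also 1 of the 6 club cell markers, whose other 5 were not called at 24 h and whose summed level was 655 to 820 in air and 798 to 928 in ozone. The part of club cell markers in the Aldh1a1 result was not tested.

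Among 10 genes of NADPH supply, 1 fell at each time, Mthfd2, a mitochondrial enzyme of folate metabolism. It read -2.29, -2.27, -2.66 and -2.37 in air and -3.26, -3.29, -3.10 and -3.00 in ozone at 6 h, a change of -0.76 ± 0.12 (SE, limma adjusted p = 0.00312). At 24 h it read -2.18, -2.09, -2.23 and -2.13 in air and -2.94, -2.64, -2.96 and -2.89 in ozone, a change of -0.70 (adjusted p = 0.00371). Of all genes 1.32% were called lower at 24 h, and 4.96% had all ozone values below all air values. The groups did not overlap at either time, and both calls held in all 16 fits with 1 array left out. With normexp background correction the changes were -0.23 at 6 h (adjusted p = 0.517) and -0.74 at 24 h (adjusted p = 0.0359). None of the pentose phosphate genes on the list, such as G6pdx and Pgd, was called.

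**Figure D4:**
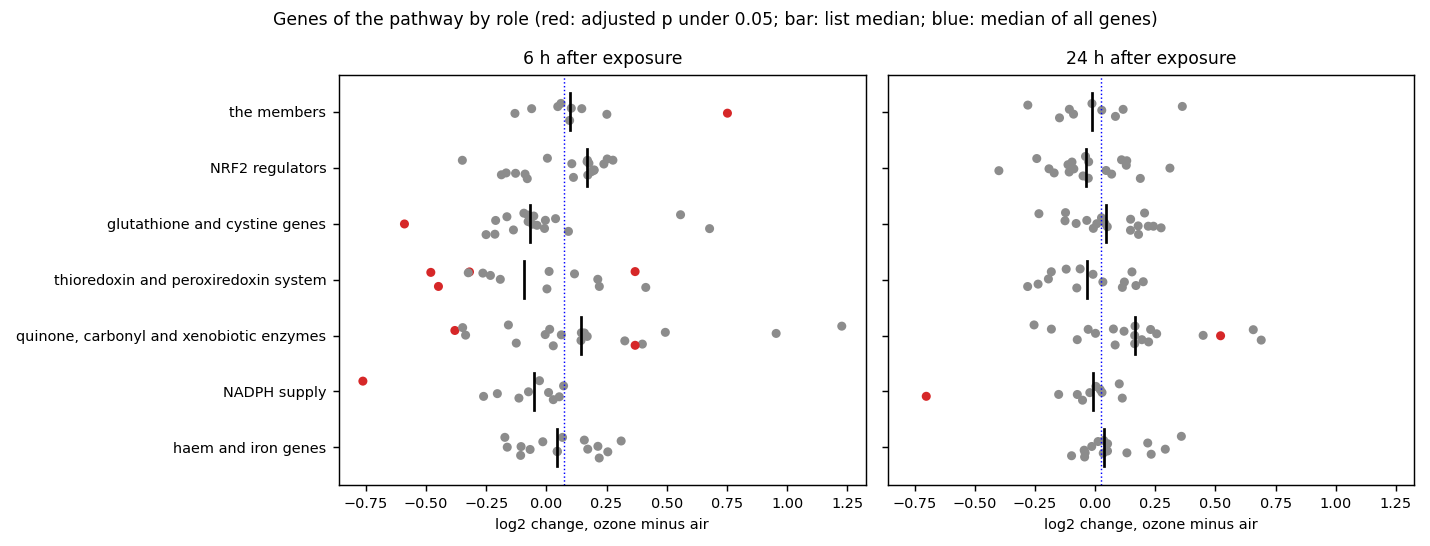
Log2 change, ozone minus air (x axis), of single genes (points) in the members and the 6 lists by role (y axis) at 6 h and 24 h, with called genes in red, the list median as a bar and the median of all genes as a blue dotted line. The called genes are Osgin1, Cth, Sesn2, Prdx1, Prdx4, Txn1, Aox1, Nqo2 and Mthfd2 at 6 h and Aldh1a1 and Mthfd2 at 24 h.

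Markers of single cell types were followed beside these genes. At 6 h the summed linear level of the thymocyte markers (5 of 6 tested, none called, Themis too dim) was 0.359 to 0.498 in ozone and 0.268 to 0.346 in air. Sums of the macrophage, neutrophil, erythroid, B cell, squamous epithelium, club and ciliated markers overlapped between ozone and air at 6 h. Mrc1 (macrophage, -0.39, limma adjusted p = 0.0416) and Dmkn (squamous epithelium, -0.43, adjusted p = 0.0432) were called lower at 6 h. The other squamous markers tested were above 0 and not called. At 24 h the sums of ciliated markers (23.8 to 26.4 in ozone, 17.4 to 22.1 in air), macrophage markers (6.20 to 7.43 and 5.54 to 5.87), B cell markers (5.71 to 7.81 and 3.75 to 4.58) and thymocyte markers (0.560 to 0.836 and 0.451 to 0.537) were higher in every ozone lung than in every air lung. Of their single genes Tppp3, Csf1r, Cd79b, Vpreb3 and Lck were called higher, while Mertk, Pax5 and Ptcra had changes below 0, not called. Over all single genes, 4.61% at 6 h and 6.80% at 24 h had every ozone value above every air value. No such share was worked out for sums, in which the brightest probes weigh most. Among erythroid markers Klf1 (-0.99, limma adjusted p = 0.0304) and Kel (-0.75, adjusted p = 0.0499) were called lower at 24 h. Pln, a heart muscle marker, was called higher (1.13, adjusted p = 0.0241). The part of these markers in the Osgin1 values was not tested.

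As a description over the 16 arrays, the genes whose values ran most like Osgin1 were Card6 (Pearson r = 0.925), Stom (0.917) and Cx3cl1 (0.908). For Nfe2l2 they were Ppfibp1 and Med17 (both 0.968) and Ubxn7 (0.966), for Nqo1 Tram1 (0.958), Rbm3 (0.952) and Nap1l1 (0.951), for Gclc Bend7 and A630031M23Rik (both 0.971) and LOC100047822 (0.966), and for Cbr3, after TC1602553 (0.970), a transcript without a gene name, Ik (0.969) and Knop1 (0.966). For Gclm they were Jmy (0.906), Poc1b (0.875) and Stard13 (0.873), for Txnrd1 Nup155 (0.917), Ywhah (0.894) and Hnrnpu (0.888), and for Hmox1 Dpagt1 (0.865), Otud3 and Ncoa3 (both 0.863). Srxn1 had its nearest genes at lower values, Peli2 (0.776), Myo16 (0.766) and Rbm42 (0.764). The arrays share slide and time, so members that differ by time correlate with the many genes that do so, and no other member was among the 3 nearest genes of any member.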

How the data were processed

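The deposited scanner files hold linear spot intensity values of 1 colour (Cy3), written by Agilent Feature Extraction 10.7.1.1, per the file headers, with background subtracted and spatial trends removed and no scaling between arrays. Per the file headers they also carry other values, flags for spots well above background, saturated or uneven. The authors' deposited table of log2 values, whose array medians of 6.41 (6 h) and 6.73 (24 h) show separate normalization of the time points, served as an alternative only. How its background was treated is not given in sources used here.

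Spots of a probe were averaged, 157 probes with an uneven spot were left out, and each array's 75th percentile was subtracted from its log2 signals. A probe was kept if well above background on 4 or more of the 16 arrays, and the probe with the highest mean stood for a gene (7336 genes had several). Names came from a RefSeq table by accession (25097 probes), symbol (6333) or synonym (1640), or from the files (8104). The model was 1 mean per group over all arrays, fitted in R 4.3.3 by limma 3.58.1 with lmFit and a trended eBayes. Intervals are 95% with 17.1 degrees of freedom, and the median SE over genes at 6 h was 0.13, so the number of arrays limits the precision. The fit was tested on simulated data. False calls made up 5.11% of its calls there for 6 h and 6.15% for 24 h. The simulated noise was normal and independent between arrays, with the fitted spread. It held no slide or array effects, so these shares do not cover them.

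The members and gene lists were chosen with earlier results of these data known. All members are named, with every called gene of a list, up to 3 genes per list with the smallest p, and the 3 genes most like each member in Pearson r. Promoter motifs and the sequences shown were chosen after values were seen. Some probes, such as those of Prdx1, Txn1, Fth1 and Ftl1, may bind near-identical copies. Positions of probes are as in the array design, on mm9. Alternatives covered background, scaling, filter, probe rule, slide, replicate number, array weights, Xist as a covariate and each array left out. Same-numbered arrays correlated between -0.007 and 0.195 in their deviations, and not all were above 0.1. The numbers were not taken as pairs in the main fit, though these values cannot show that the lungs were unpaired.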

Additional observations from a re-analysis of the deposited data

Results flagged for a closer look

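In 56 checks of 4 arrays each (14 probes in 4 groups), 3 values lay far from the other arrays of their group, where chance gives about 1 in 20. Gclm was lowest in ozone 24 h replicate 1, at -2.97, where the other arrays lay between -2.52 and -2.47. Txnrd1 was highest in the same lung, at 3.10, where the others lay between 2.75 and 2.79. A dimmer probe of Srxn1 (A_51_P330125) was highest in ozone 6 h replicate 3, at -2.68, where the others lay between -4.17 and -4.05. That array also had the highest share of probes well above background, 83.9%, and the 2 Slc7a11 probes that passed the background flag did so on it alone.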

How the results depend on the processing

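The Osgin1 rise at 6 h was called under 13 of 14 alternatives and under each of the 16 fits with 1 array left out, with changes of 0.54 to 0.97 and limma adjusted p from 0.000377 to 0.0855. Within the slide of replicates 1 and 2 it was not called, which left 0 members called at 6 h. At 24 h, 1 member (Osgin1) was called among probes well above background on all 16 arrays, on the arrays of the time point alone and with array weights (adjusted p = 0.00445), and its adjusted p ranged from 0.00445 to 0.385. With normexp 1 member (Gclm) differed between the times. With 1 array left out, members called numbered 1 to 1 at 6 h, 0 to 1 at 24 h, 0 to 0 for the difference and 3 to 4 for air by time. Over the 8 alternatives of air by time 3 to 5 were called, with 1 of them higher under normexp (Gclm) and 1 under quantile normalization (Txnrd1). The median of the members at 6 h ran from 0.02 to 0.22 over alternatives and from -0.03 to 0.15 with 1 array left out, and at 24 h from -0.06 to 0.05 and from -0.05 to 0.04. The probes of Nfe2l2 changed by -0.66, -0.45 and, for the distant probe, 1.64 in air by time. On the mean of these probes the fall of Nfe2l2 reversed to 0.18 (adjusted p = 0.0971). That of Gclc was not called with array weights (-0.23, adjusted p = 0.0589), without air 6 h replicate 2 (adjusted p = 0.054) or without air 24 h replicate 3 (adjusted p = 0.0644), and that of Nqo1 not with normexp (-0.26, adjusted p = 0.189). The cause of the other shifts was not tested. Normexp moved the median of all genes to 0.14 at 6 h, -0.13 at 24 h and 0.20 in air by time.

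Over all genes, 970 were called at 6 h and 434 at 24 h. The counts were 53 and 47 within the slide of replicates 1 and 2, 1813 and 1738 with array weights, and 558 and 245 with Xist as a covariate. With the replicate number as a block, which does not pair the samples, 247 and 261 genes were called. On the arrays of the time point alone 100 genes were called at 6 h, without a trend 546, and 255 genes were called at 24 h within the slide of replicates 3 and 4. Leaving out 1 array gave 196 (without air replicate 4) to 1690 (without air replicate 2) at 6 h, with a count of 433 without ozone replicate 3, and 263 to 530 at 24 h. Signal over background limits what can be said of Slc7a11, and 4 arrays per group limit the rest.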
